A study of Mus musculus with 6 samples.

Results

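The 7 genes described here are the TGF-beta ligands Tgfb1, Tgfb2 and Tgfb3, the receptors Tgfbr1, Tgfbr2 and Tgfbr3, and Tgfbi, a secreted matrix protein named for its induction by TGF-beta. They were taken by symbol from a single-cell count table of 31053 genes and 33961 cells, and all 7 were found. The cells came from tumors of CT26, a mouse colon carcinoma line, grown in female Balb/c mice of 5 to 6 weeks. Tumors were taken 5 days after treatment and enriched for CD45+ cells with beads. The sample labels list 6 samples in 3 groups of 2, given vehicle, low-dose or high-dose PD-1 GITR-L bispecific antibody. The high dose is 30 mg/kg, and for the low dose the protocol text gives 10 mg/kg while the sample attribute gives 30 mg/kg. The authors' paper states another bispecific dose for its single-cell tumors, beside an isotype control and not a vehicle. All groups carry the same tumor in the same strain, and no group lacks the tumor.

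The table holds 4 libraries, named M1, M2, M5 and M6, and these names do not match any sample label, so the libraries were not assigned to a treatment and no treatment comparison was made. What could be compared was the authors' annotation, which gives each cell one of 12 labels from its best match to a reference of sorted mouse immune cells. For 8 labels every library held at least 20 cells: NK cells, ILC, T cell EFF, T cell MEM, NKT, Myeloid, DC and Stroma, together 33542 cells. Labels were compared and ranked among these 8 only. Levels are in CPM, the usual depth-scaled count: the gene's UMIs (unique molecular identifiers, 1 per captured transcript) as a share of all UMIs of the label. The chemistry reads the 3′ end once per transcript, so a level was not divided by gene length. Libraries of unknown treatment are not replicates; values are therefore given library by library, in the order M1, M2, M5 and M6, with no test, and the intervals are exact 95% Poisson or binomial ones that cover counting error only.

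The 4 libraries held 7160 to 10294 cells with a median of 11399 to 21801 UMIs per cell, and Stroma made up 27.2% to 61.2% of their cells. Library pairs shared 9 to 29 cell barcodes, at most 0.324% of the smaller library. Marker genes followed most label names: all 6 stromal markers were highest in Stroma, all 4 NK markers in NK cells, 7 of 9 macrophage and monocyte markers in Myeloid and 5 of 6 DC markers in DC. Of 4 tumor epithelium markers 2 were highest in Stroma, 1 in DC and 1 in B cells, out of all 12 labels. Labels also held genes of other cells. Of the 4 ILC markers none was highest in ILC and 3 were highest in NKT. Among the 8 labels Foxp3, the regulatory T cell factor, was highest in NKT at 196 CPM, and 2 erythroid markers were highest there too, at a summed 1308 CPM. The ILC label carried the NK markers at a summed 1924 CPM, against 2659 CPM in NK cells. Stroma cells had a median of 40692 UMIs against 4287 to 10049 in the other 7 labels, and the summed macrophage and monocyte markers reached 858 to 1552 CPM in the 5 lymphocyte labels among the 8. Of those 9 markers, however, 1 was itself highest in NK cells and 1 in T cell MEM. Lyz2, another of the 9, was 134 to 554 CPM in these 5 labels.

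TGF-beta ligands are made as a precursor that furin cleaves, and are secreted in a latent complex that latent TGF-beta binding proteins or the membrane protein GARP hold in place until integrins or thrombospondin release them. The freed dimer binds the type II receptor (Tgfbr2), which phosphorylates the type I receptor (Tgfbr1), which in turn phosphorylates SMAD2 and SMAD3; the co-receptor betaglycan (Tgfbr3) presents ligand, above all TGF-beta 2. In tumors the pathway is known for restraining NK and T cells, for supporting regulatory T cells and for activating fibroblasts.

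On the GRCm38 mouse genome Tgfb1 lies at chr7:25687002-25705077 on the + strand, Tgfb2 at chr1:186622792-186705989 (-), Tgfb3 at chr12:86056745-86079041 (-), Tgfbr1 at chr4:47353222-47414931 (+), Tgfbr2 at chr9:116084293-116175360 (-), Tgfbr3 at chr5:107106570-107289629 (-) and Tgfbi at chr13:56609523-56639562 (+). RefSeq promoter sequences (GRCm38.p6) covered 5 of the 7 genes. The 250 bases before the start of 3 of them are shown: the most and the least abundant ligand, and the receptor whose pattern was most like that of Tgfb1. Capitals mark motif matches on either strand: the GC box GGGCGG, the TATA box TATAAA, the CCAAT box CCAAT, the E box CACGTG, the SMAD element CAGACA and the ETS core GAGGAA; the AP-1 motif TGANTCA was searched too and had no match in these windows. No marked matches overlap.
Tgfb1, chr7:25686752-25687001 (+): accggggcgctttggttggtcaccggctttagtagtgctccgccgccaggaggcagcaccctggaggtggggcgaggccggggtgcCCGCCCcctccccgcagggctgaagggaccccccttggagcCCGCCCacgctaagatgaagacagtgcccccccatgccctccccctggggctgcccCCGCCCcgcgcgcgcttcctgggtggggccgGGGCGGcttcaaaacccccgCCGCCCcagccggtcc
Tgfb2, chr1:186705990-186706239 (-): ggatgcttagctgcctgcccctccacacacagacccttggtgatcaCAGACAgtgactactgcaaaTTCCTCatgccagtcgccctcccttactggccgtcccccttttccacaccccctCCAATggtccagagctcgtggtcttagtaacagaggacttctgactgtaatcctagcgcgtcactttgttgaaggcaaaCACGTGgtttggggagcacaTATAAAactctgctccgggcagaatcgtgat
Tgfbr2, chr9:116175364-116175613 (-): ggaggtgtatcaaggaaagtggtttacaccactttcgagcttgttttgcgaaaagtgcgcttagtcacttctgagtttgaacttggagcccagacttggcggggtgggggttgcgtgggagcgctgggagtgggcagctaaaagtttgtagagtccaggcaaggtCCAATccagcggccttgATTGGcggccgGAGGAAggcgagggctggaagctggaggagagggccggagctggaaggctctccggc
The ligand windows differed in composition: Tgfb1 was 75.2% G and C with 5 GC boxes and no TATA box, whereas Tgfb2 was 53.6% G and C with a TATA box 31 to 26 bases before the start, an E box and no GC box. Tgfbr2 stood between them at 58.4%, with 2 CCAAT boxes on opposite strands and 1 ETS core. Among 32817 mouse promoter windows of the same length 32.7% held a GC box, 12.4% a TATA box, 33.8% a CCAAT box, 6.02% an E box, 17.1% the SMAD element, 23.3% the ETS core and 6.75% the AP-1 motif; the median window was 52.4% G and C. A match says only that these letters occur in the window.

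Tgfb1 was the most abundant member, with 101972 UMIs in the table and a UMI in 72.4% of cells. In NK cells its level was 460, 425, 461 and 521 CPM, the highest of the 8 labels in each of the 4 libraries, and the library range did not overlap that of the next label, ILC (335, 384, 389 and 410 CPM). T cell MEM (pooled 335 CPM), T cell EFF (332 CPM), NKT (282 CPM) and Myeloid (250 CPM) came next, and neighbours in this order had overlapping library ranges. DC stood apart below them at 153 to 216 CPM, and Stroma was lowest at 33.4, 37.2, 34.2 and 33.3 CPM, 13.5-fold below NK cells by pooled CPM. Stroma cells held far more UMIs, however. Counted per cell, the mean was 1.53 Tgfb1 UMIs in Stroma, 4.22 in NK cells, 4.81 in T cell EFF and 5.59 in ILC, so NK cells led per UMI but not per cell, and Stroma still supplied 23.5% of all Tgfb1 UMIs, close to the 25.4% from ILC. The other 2 ligands were much rarer, with 699 UMIs for Tgfb2 and 4701 for Tgfb3.

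**Figure D1:**
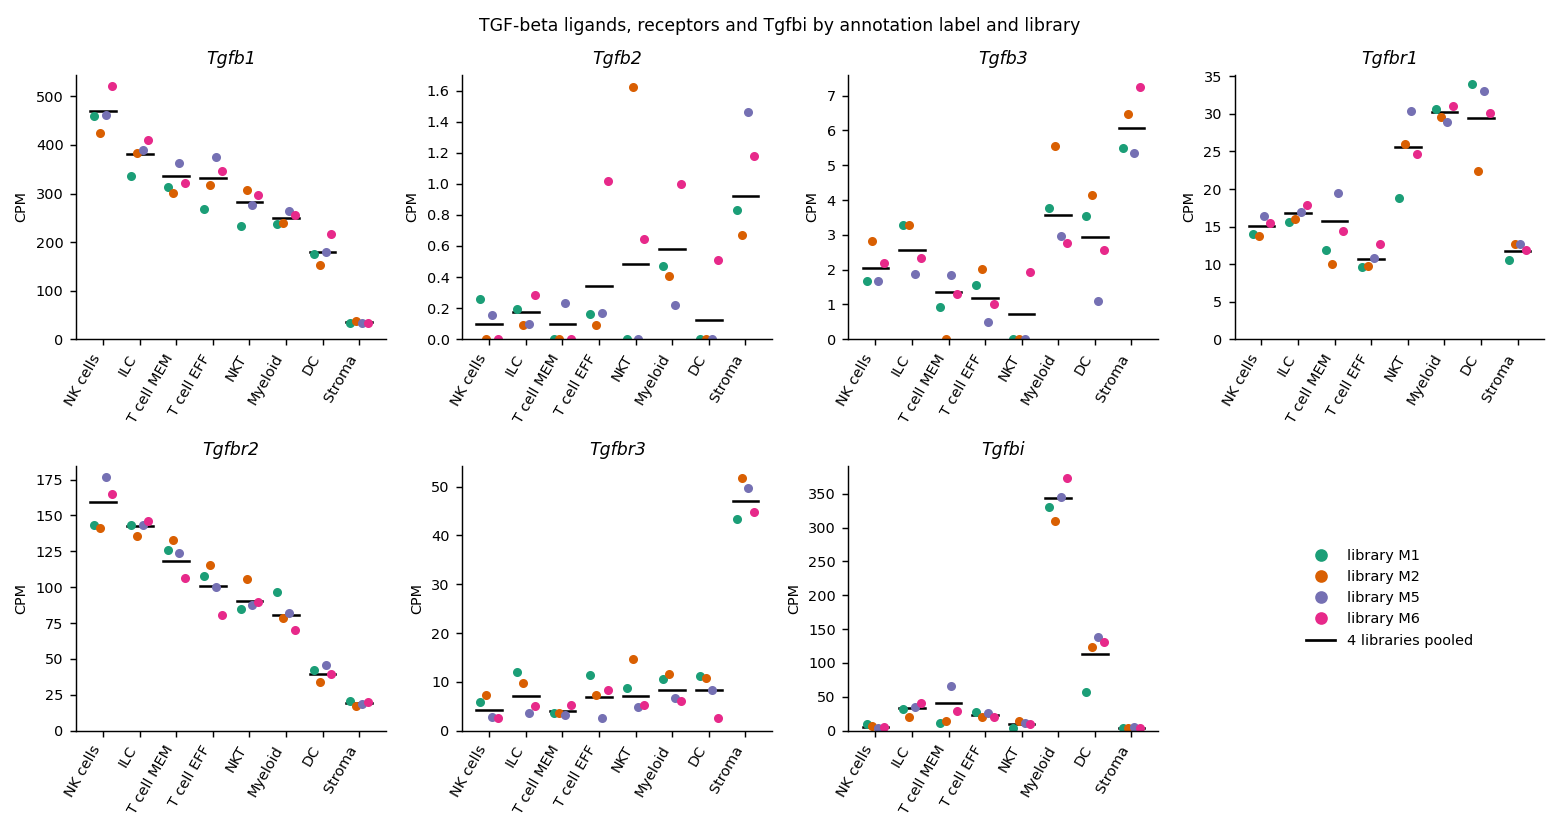
Each panel plots 1 gene, with the level in CPM on the vertical axis (linear, from 0) and the 8 annotation labels on the horizontal axis; points are the 4 libraries and black lines the pooled level. Tgfb1 and Tgfbr2 are both highest in NK cells and lowest in Stroma by pooled level, Tgfbr3 stands out in Stroma at 43.4 to 51.8 CPM, and Tgfbi stands out in Myeloid at 310 to 373 CPM.

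Tgfb2 and Tgfb3 were found mostly in Stroma, which held 91.1% and 89.4% of their UMIs but also 75.6% of all UMIs. The Tgfb3 level in Stroma was 5.50, 6.46, 5.35 and 7.24 CPM, above the other 7 of the 8 larger labels in each library, although the range overlapped that of Myeloid (3.77, 5.55, 2.98 and 2.76 CPM). Tgfb2 reached only 0.834, 0.671, 1.46 and 1.18 CPM in Stroma, which led in 3 of 4 libraries, and the ranges of all neighbouring labels overlapped. Outside Stroma no label had more than 22 Tgfb2 UMIs. At 2000 UMIs per cell, 0 of 4218 NK cells had a Tgfb2 UMI, which allows a share of up to 0.0711% at that depth only (unthinned, 4 of 4398 did, 0.0910%), against 33 of 15642 Stroma cells (0.211%, interval 0.145% to 0.296%). An order of the immune labels by Tgfb2 was thus not detectable at this depth.

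The receptors did not share 1 pattern. Tgfbr2, the type II receptor that binds ligand first, was highest of the 8 labels in NK cells in all 4 libraries at 143, 141, 177 and 165 CPM, followed by ILC at 143, 136, 143 and 146 CPM, with overlapping ranges and no visible difference in M1. From there it declined through T cell MEM (119 CPM), T cell EFF (101 CPM), NKT (90.6 CPM) and Myeloid (80.5 CPM), and DC (33.5 to 45.7 CPM) and Stroma (16.8 to 20.4 CPM) lay below the ranges of the other 6 of the 8 larger labels. By pooled CPM this is the order of the 8 labels for Tgfb1 as well, but T cell MEM was above T cell EFF in 4 of 4 libraries for Tgfbr2 and in 1 of 4 for Tgfb1. Averaged over cells the orders differed there: Tgfb1 was 388 CPM in T cell EFF and 312 CPM in T cell MEM, and Tgfbr2 117 and 129 CPM. As for Tgfb1, NK cells did not lead in Tgfbr2 UMIs per cell. The mean was 2.09 in ILC, 1.46 in T cell EFF and 1.43 in NK cells. Across the 38 combinations of label and library with at least 20 cells, Tgfbr2 and Tgfb1 had a Pearson r of 0.88 on log2(CPM + 1), a description over points that share cells and depth.

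Tgfbr1, the type I receptor kinase, was highest by CPM in Myeloid and DC among the 8 labels instead. The Myeloid level was 30.6, 29.6, 28.9 and 31.1 CPM and the DC level 34.0, 22.3, 33.0 and 30.2 CPM, and each led in 2 libraries. NKT followed at 18.7 to 30.4 CPM, overlapping DC. ILC, T cell MEM and NK cells had pooled levels of 15.1 to 16.8 CPM, and Stroma (11.8 CPM) and T cell EFF (10.7 CPM) were lowest. Counted per cell, however, Stroma led the 8 labels, with a mean of 0.519 Tgfbr1 UMIs against 0.432 in DC and 0.428 in Myeloid. Stroma held 67.0% of all Tgfbr1 UMIs, beside 75.6% of the UMIs of all genes. The spread from highest to lowest label was 2.82-fold for Tgfbr1, against 8.45-fold for Tgfbr2 and 13.5-fold for Tgfb1. Without M2, and when each cell's own CPM was averaged, DC rather than Myeloid led Tgfbr1 (32.4 against 30.3 CPM, and 47.6 against 37.9 CPM).

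Tgfbr3, which encodes betaglycan, was highest under the Stroma label in all 4 libraries. Its Stroma level was 43.4, 51.8, 49.8 and 44.7 CPM with no overlap with the other 7 of the 8 labels, and their pooled levels were 4.04 to 8.33 CPM. Stroma held 95.7% of the 34104 Tgfbr3 UMIs. In ILC, T cell EFF, NK cells and Myeloid Tgfbr3 moved with the collagen gene Col1a2 and with doublet scores. Col1a2 was spread over the Stroma label, at 610 CPM even in its cells with Col3a1 under 1000 CPM. The 46 ILC cells with most Tgfbr3 carried 251 of the label's 475 UMIs, had Col1a2 at 945 CPM against 42.3 CPM in the other ILC cells, and 35 of the 46 had a doublet score above 0.25. They were also deep, with a median of 50782 UMIs against 9674. Without cells above that score Tgfbr3 was 2.94 CPM in ILC (7.01 with them), 2.86 CPM in T cell EFF (6.90), 2.56 CPM in NK cells (4.25) and 4.42 CPM in Myeloid (8.24), while Stroma stayed at 47.0 CPM. The drop was smaller in DC (6.28 from 8.33 CPM), NKT (5.73 from 7.06) and T cell MEM (3.72 from 4.04). Per 1000 Col1a2 UMIs there were 69.2 Tgfbr3 UMIs in Stroma and 89.1 in ILC. The ratios of NKT (296, library range 118 to 643) and T cell MEM (368, 148 to 500) were higher but rest on only 29 and 42 Tgfbr3 UMIs. The part of Stroma transcripts in the Tgfbr3 values of the other labels was not tested.

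**Figure D2:**
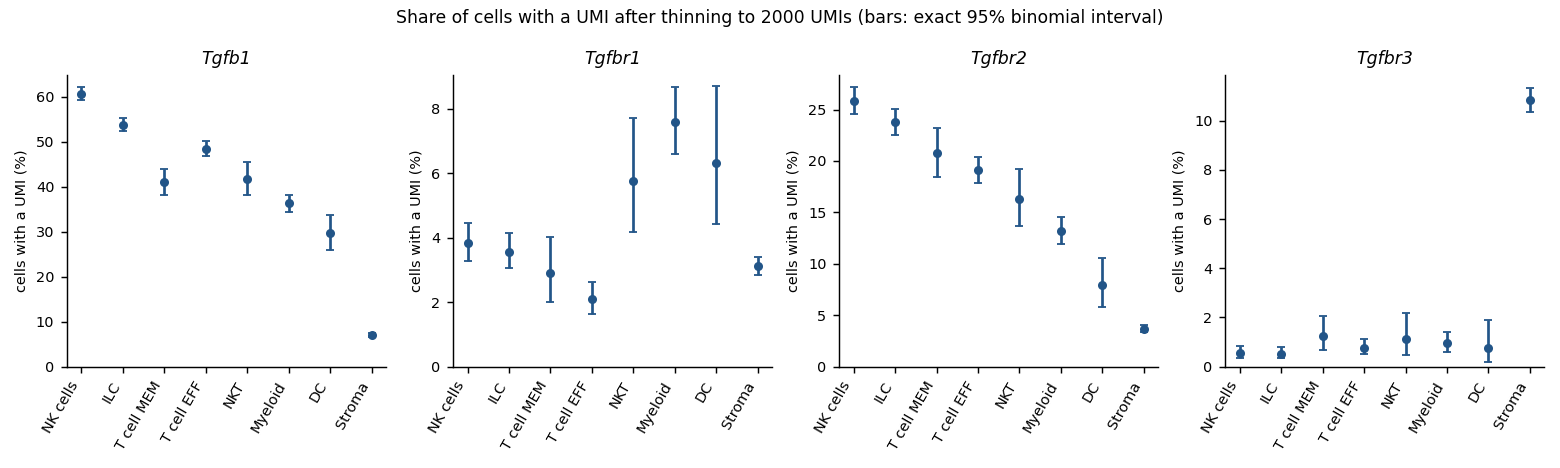
Each panel plots, for 1 gene, the percentage of cells with at least 1 UMI after every cell was thinned to 2000 UMIs, by annotation label; bars are exact 95% binomial intervals over cells. Tgfb1 reaches 60.7% of NK cells and 6.99% of Stroma cells, Tgfbr1 is under 8% in all 8 labels shown, and Tgfbr3 exceeds 2% in Stroma alone.

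Because cells differed in depth, shares of cells with a UMI were compared after thinning each cell to 2000 UMIs. Tgfb1 was then seen in 60.7% of NK cells (interval 59.2% to 62.2%), 53.8% of ILC, 48.4% of T cell EFF, 36.4% of Myeloid and 6.99% of Stroma cells. Tgfbr2 was seen in 25.9% of NK cells (24.5% to 27.2%), 13.2% of Myeloid and 3.70% of Stroma cells, and Tgfbr1 in 7.58% of Myeloid (6.58% to 8.67%), 3.84% of NK cells and 3.12% of Stroma cells. Tgfbr3 was seen in 10.8% of Stroma cells (10.3% to 11.3%) and in 0.545% of NK cells, whose median depth was 5397 UMIs against 40692 in Stroma; unthinned, those shares were 72.9% and 2.41%. At 2000 UMIs Lyz2, a macrophage and monocyte gene, was seen in 13.8% of NK cells and 3.31% of Stroma cells. Col1a2 was seen in 4.01% of NK cells and the B cell gene Cd79a in 0.0711%. Whether low member shares lie above transcripts of other cells was not tested. The type I and type II receptors together were seen in 1.09% of NK cells (46 of 4218, interval 0.800% to 1.45%), where the product of the single shares was 0.993%, and in 1.10% of Myeloid cells (28 of 2547, 0.732% to 1.58%), where the product was 1.00%. Both intervals include the product at this depth, where few cells had both. Without thinning, where cells differ in depth, both shares lay above the product. They were then 7.75% in NK cells (6.98% to 8.58%, product 6.76%) and 17.9% in Myeloid (16.4% to 19.4%, product 11.9%). At 2000 UMIs the ligand Tgfb1 and Tgfbr2 were seen together in 16.5% of NK cells (15.3% to 17.6%, product 15.7%) and 13.5% of ILC (12.5% to 14.6%, product 12.8%).

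Tgfbi had the widest spread of the 7 genes, 94.7-fold from Myeloid to Stroma. Its Myeloid level was 330, 310, 345 and 373 CPM, above the ranges of the other 7 of the 8 labels, and Myeloid cells held 63.0% of its 20780 UMIs. DC followed at 56.9, 123, 139 and 131 CPM, with M1 the low library. The lymphocyte labels ranged from 5.89 CPM in NK cells to 41.0 CPM in T cell MEM, whose libraries were uneven at 11.0, 14.5, 65.6 and 29.4 CPM. Averaged over cells T cell MEM was 15.5 CPM, under ILC at 16.5 CPM. At 2000 UMIs per cell Tgfbi was seen in 35.4% of Myeloid cells (33.6% to 37.3%) and 13.2% of DC but in only 1.14% of NK cells.

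Across the lymphocyte labels pooled Tgfbi moved with the macrophage and monocyte gene Lyz2, which encodes lysozyme. Per 1000 Lyz2 UMIs there were 51.9 Tgfbi UMIs in Myeloid, 44.1 in NK cells, 60.9 in ILC, 63.6 in T cell EFF, 68.6 in NKT and 83.3 in T cell MEM, while DC (210) and Stroma (274) lay outside this band. Single libraries spread more widely, from 28.6 to 66.0 in NK cells, 30.0 to 86.5 in NKT and 25.3 to 104 in T cell MEM, where M5 was highest for both genes but M6, lowest for Lyz2, had more Tgfbi than M1 and M2. The lymphocyte UMIs sat in few cells. In ILC the 46 cells with most Tgfbi carried 47.8% of the label's Tgfbi UMIs, with Lyz2 at 2379 CPM against 478 CPM in the other ILC cells, and 2 of the 46 had a doublet score above 0.25. Their median depth was 54472 UMIs against 9674. The part of myeloid transcripts in these lymphocyte values was not tested.

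**Figure D3:**
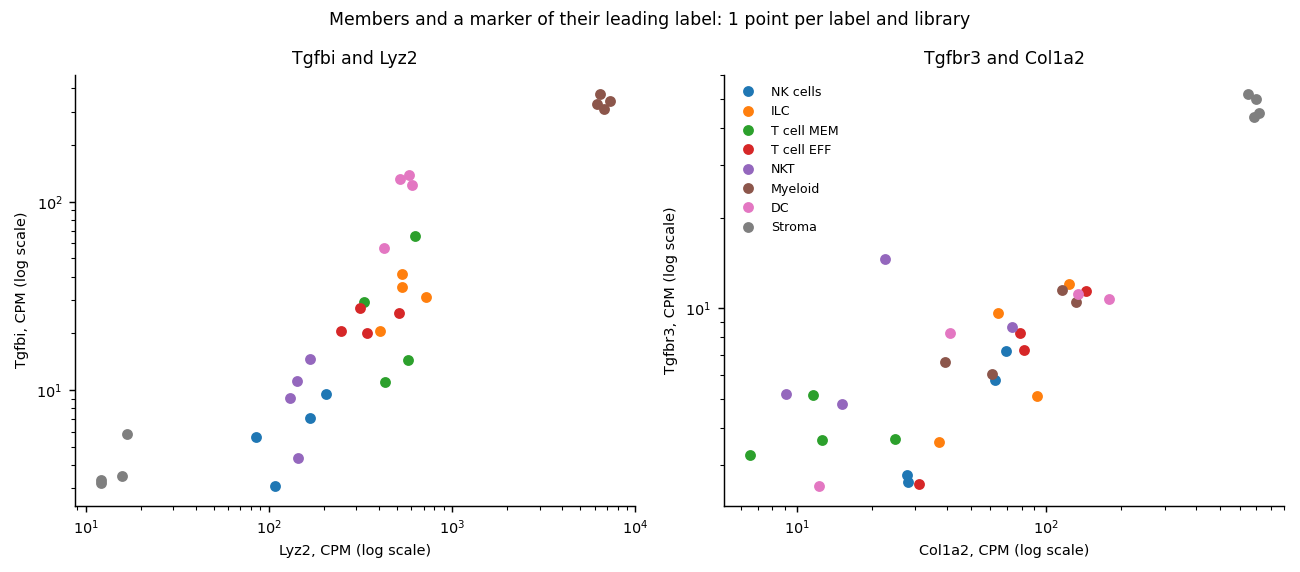
Each point is 1 label in 1 library, with the level of a marker (Lyz2 on the left, Col1a2 on the right) on the horizontal axis and of Tgfbi or Tgfbr3 on the vertical axis, all in CPM on log scales. Myeloid (left) and Stroma (right) sit apart at the upper right, DC lie above most lymphocyte points at similar Lyz2, and the Stroma points at the lower left of the Tgfbi panel have Lyz2 near 13.3 CPM.

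Of the 7 members 5 had the same highest label in all 4 libraries (all but Tgfb2 and Tgfbr1), where 41.1% of the 15358 genes with at least 100 UMIs did. That count was 4 without cells over 10% mitochondrial UMIs, without doublet-scored cells, without mitochondrial and ribosomal protein UMIs and when averaged over cells, and 6 without M2. For 2 of the 7, Tgfbr3 and Tgfbi, that label was also more than 2-fold above the next in every library, where 7.38% of genes were. Neither background share was matched to the UMI totals of the members, which ran from 699 for Tgfb2 to 101972 for Tgfb1. Pairs of labels were then compared by the same rule, more than 2-fold on CPM + 1 in the same direction in all 4 libraries. Stroma differed from Myeloid in 5 of 7 members, where 23.5% of all genes passed: Tgfbr3 was higher in Stroma (log2 ratio 2.38) and Tgfb1 (-2.82), Tgfbr1 (-1.29), Tgfbr2 (-2.04) and Tgfbi (-6.22) were lower. Myeloid differed from T cell EFF in 2 members (11.0% of all genes), Tgfbr1 (1.41) and Tgfbi (3.80), both higher in Myeloid. DC differed from Myeloid in Tgfbi alone (-1.61; 5.73% of all genes), although Tgfbr2 was also lower in DC in every library (-1.002, library range -1.20 to -0.82). NK cells had less Tgfbi than T cell EFF (-1.84; 4.09% of all genes passed) and ILC had more Tgfbi than NK cells (2.33; 1.37%); neither passed when each cell's own CPM was averaged, and Lyz2 differed the same way, at 134 CPM in NK cells, 373 CPM in T cell EFF and 554 CPM in ILC. NKT and T cell EFF differed past 2-fold in 0 of 7 members, where 3.12% of all genes passed; Tgfbr1 was higher in NKT in 4 of 4 libraries (log2 ratio 1.18, range 0.90 to 1.42) and Tgfbi lower in 4 of 4 (-1.20, range -2.41 to -0.47). Without M2, Tgfbi passed.

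The Stroma label was not uniform. The label may hold tumor cells as well as fibroblasts, and which of its cells are tumor cells was not tested. Most of its cells had little Col3a1, a fibrillar collagen of fibroblasts, and 244 of 15687 cells (1.56%) had at least 1000 CPM of it; 435 cells lay between 500 and 2000 CPM, so the line is a cut through a range. The collagen-rich cells had Dcn, the fibroblast proteoglycan decorin, at 5141 CPM against 419 CPM in the rest, Xist, the RNA that coats the inactive X chromosome of female cells, at 418 against 14.7 CPM, and the epithelial keratin Krt18 at 3.06 against 28.5 CPM. Their depth was lower, with a median of 27072 UMIs against 40996. M1, M2, M5 and M6 held 129, 46, 34 and 35 of these collagen-rich cells.

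Tgfb2 and Tgfbr2 had the largest ratios between those collagen-rich cells and the rest. Tgfb2 was 17.3, 30.7, 49.8 and 54.9 CPM in them and 0.625, 0.462, 0.836 and 0.623 CPM in the other Stroma cells, with no overlap (log2 ratio of pooled CPM + 1 4.34), and 1.04% of the label's UMIs held 35.5% of its Tgfb2. Tgfbr2 was 209, 213, 201 and 380 CPM against 17.99, 15.4, 16.1 and 15.99 CPM (log2 ratio 3.75), which put the collagen-rich cells above the pooled NK level and the remaining Stroma cells below the other 7 of the 8 larger labels. The remaining cells still held 87.0% of the label's Tgfbr2 UMIs. Tgfbr3 was higher in them as well, at 160, 150, 224 and 178 CPM against 41.9, 51.1, 47.5 and 43.3 CPM (1.88), but the other Stroma cells still supplied 96.2% of the label's Tgfbr3 UMIs. Tgfb1 (log2 ratio 1.08), Tgfb3 (1.28) and Tgfbr1 (1.17) were also higher in every library. So was Tgfbi, at 7.74, 9.16, 63.5 and 19.2 CPM against 3.16, 3.28, 5.06 and 3.34 CPM (2.15), with M5 far above the others; without M5 the log2 ratio was 1.41. More than 2-fold in all 4 libraries were Tgfb2, Tgfbr1, Tgfbr2, Tgfbr3 and Tgfbi, 5 of 7 members, where 11.1% of all genes passed. At 2000 UMIs per cell Tgfbr2 was seen in 27.0% of collagen-rich cells (65 of 241, interval 21.5% to 33.0%) and 3.33% of the rest. Split at 100 CPM of Col3a1 instead, which puts 3190 cells on the high side, the log2 ratios were 1.15 for Tgfb2, 1.24 for Tgfbr2 and 1.18 for Tgfbr3, and those of Tgfb1 (0.07) and Tgfbi (0.05) were near 0.

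**Figure D4:**
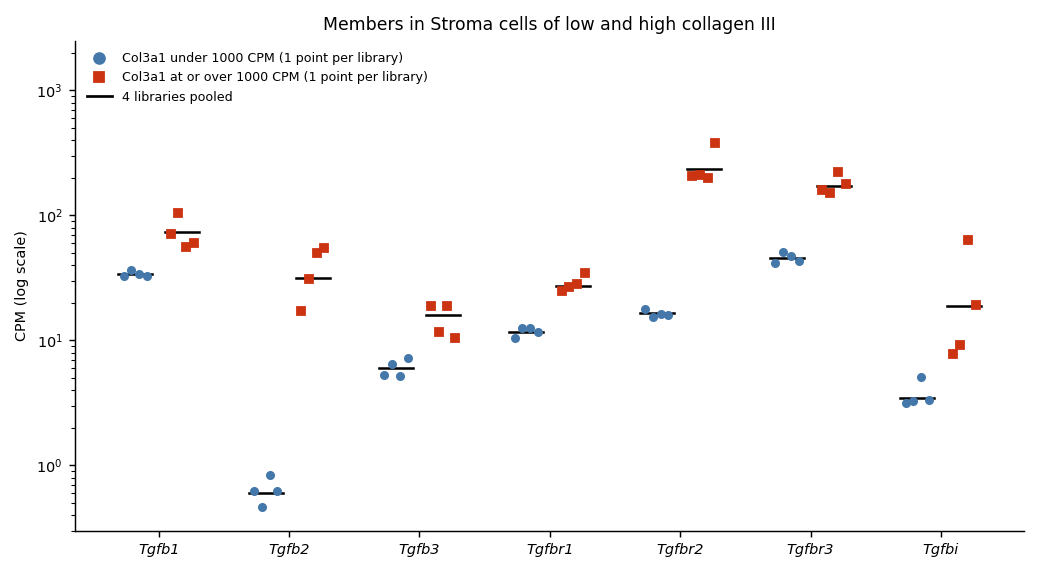
The 7 genes are on the horizontal axis and the level in CPM is on a log vertical axis; circles are Stroma cells with Col3a1 under 1000 CPM, squares those at or over it, 1 point per library, and black lines the pooled levels. The sets do not overlap for any gene, and the gap is widest for Tgfb2 (31.4 against 0.600 CPM) and Tgfbr2 (235 against 16.6 CPM).

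Of the 52 pathway genes examined beside the members, 51 had enough UMIs and 16 passed the same rule in the collagen-rich cells, all of them higher, where 11.1% of all genes passed (1276 higher and 436 lower). They included the latent ligand activator Thbs1, or thrombospondin (417 against 16.4 CPM), together with Postn, Fn1, Col1a1, Acta2, Tagln, Ltbp2, Inhba, Skil and Pmepa1. Col1a1 is made together with Col3a1, the gene that set the split, so its place among the 16 is not independent of it.

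Within Myeloid, cells were split by the complement genes C1qa, C1qb and C1qc, which mark tissue macrophages. The 711 C1q-rich cells had Tgfbr2 at 135, 107, 111 and 102 CPM against 60.1, 57.6, 67.0 and 57.6 CPM in the other 1969 cells, with no overlap (log2 ratio 0.92). The C1q-rich cells were also deeper, with a median of 13452 UMIs against 7371. Tgfbi did not follow the split: it was 352, 271, 313 and 369 CPM in C1q-rich cells and 310, 340, 361 and 375 CPM in the rest (log2 ratio -0.10, library range -0.33 to 0.18). Tgfbr1 was 31.1 and 29.6 CPM pooled (log2 ratio 0.07), and averaged over cells the direction turned (-0.48). No member passed 2-fold in all 4 libraries, where 1.22% of all genes did. Of 51 pathway genes 3 passed, all lower in the C1q-rich cells. They were Inhba (178 against 761 CPM), Thbs1 (82.9 against 443 CPM) and Zfyve9. The 274 Myeloid cells with at least 10 UMIs of the mast cell proteases Cpa3 and Mcpt4 had Tgfbr1 at 80.7, 46.8, 100 and 73.0 CPM but Tgfbi at only 29.2, 6.69, 5.27 and 53.1 CPM (45 UMIs in all); they lay on both sides of the split. The 1703 C1q-poor cells that were not among them had Tgfbr1 at 26.6 CPM and Tgfbi at 376 CPM.

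T cells with a Foxp3 UMI, the transcription factor of regulatory T cells, were compared with those without among cells of the T and NKT labels that had a Cd3 UMI. The 868 Foxp3-positive cells had Tgfb1 at 297, 298, 290 and 287 CPM against 269, 314, 389 and 345 CPM in the 4932 others, with overlapping ranges (log2 ratio -0.20). Tgfbr2 was lower in them in every library (75.9 against 108 CPM pooled, log2 ratio -0.50) and Tgfbr1 higher (18.5 against 11.3 CPM, 0.66), with no overlap of the library ranges for either receptor. The Foxp3-positive cells were shallower, with a median of 6607 UMIs against 8010, and numbered 52, 67, 386 and 363 in the 4 libraries. Both groups mix labels. Pooled Tgfbr1 was 25.6 CPM in NKT, where Foxp3 was highest of the 8 labels, and 10.7 CPM in T cell EFF. Tgfbr2 was 90.6 and 101 CPM there. The part of the labels in these receptor ratios was not tested. Of the 11 latency and activation genes 2 passed: Lrrc32, which encodes GARP, was 36.8 against 2.07 CPM (3.62) and the integrin chain Itgb8 38.8 against 1.84 CPM (3.81), while Furin was 80.5 against 60.1 CPM and did not pass. Itgae, a target, and Bmpr2, of the BMP branch, passed too. None of the 7 members passed, where 0.840% of all genes did.

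The other latency and activation genes separated by label. All 4 latent TGF-beta binding proteins were highest in Stroma in each library, led by Ltbp1 at 84.7 CPM and Ltbp4 at 54.1 CPM. Lrrc32 (36.04 CPM) and Itgb8 (52.6 CPM) were highest in NKT in 4 of 4 libraries. Nrros, the myeloid counterpart of GARP, was highest in DC at 85.1 CPM with Myeloid at 70.3 CPM and Stroma at 0.30 CPM. Thbs1 (310 CPM) and Furin (157 CPM) were highest in Myeloid in 4 of 4 libraries. In all, 9 of the 11 genes of this group had 1 highest label in every library, where 41.1% of all genes, not matched for UMI total, did.

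**Figure D5:**
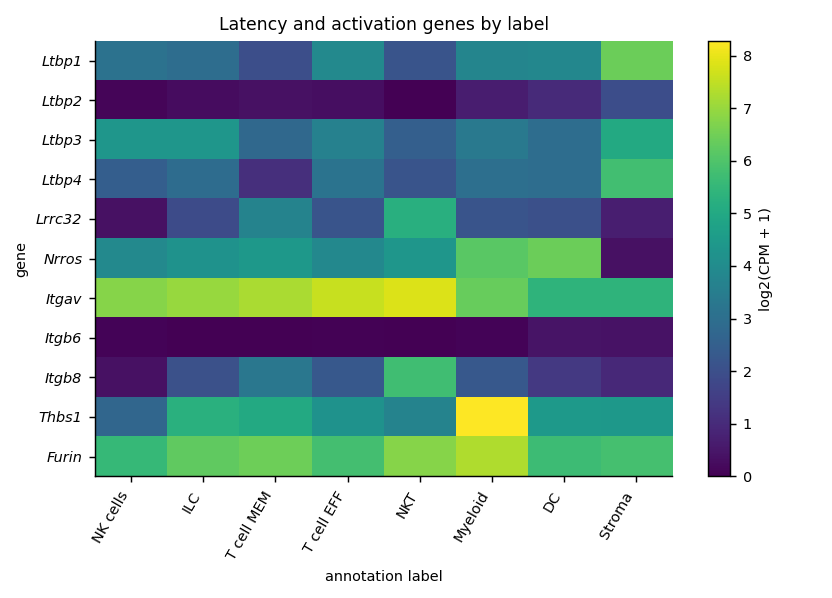
The 11 latency and activation genes are in rows and the 8 annotation labels in columns, and colour gives the pooled level as log2(CPM + 1). The 4 Ltbp genes are brightest in Stroma (Ltbp1 84.7 CPM), Lrrc32 and Itgb8 in NKT, Nrros in DC and Myeloid, and Thbs1 and Furin in Myeloid.

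Among signaling genes and inhibitors, 6 of 14 kept 1 highest label, near the 41.1% of all genes that did. The inhibitory Smad7 (454 CPM), the co-repressors Ski (83.3 CPM) and Skil (251 CPM), the common mediator Smad4 (90.6 CPM) and the feedback inhibitor Pmepa1 (404 CPM) were highest in NKT in 4 of 4 libraries, while Smad2 was nearly even at 22.9 to 30.0 CPM over the 8 labels. In the activin and BMP branch 10 of 13 genes kept 1 highest label: Inhba, the activin A subunit, was 547 CPM in Myeloid with a library range of 160 to 925 CPM, Acvrl1 43.7 CPM in Myeloid, and Bmp2 28.6 CPM and Bmpr1a 25.1 CPM in Stroma. Of 14 targets 6 did, again near 41.1%, among them Cyr61 (450 CPM), Fn1 (461 CPM) and Klf10 (72.0 CPM) in Stroma. For the whole list it was 31 of 52 genes, where 41.1% of all genes, not matched for UMI total, did. In the contrast of NKT with T cell EFF, 3 of 14 signaling genes passed 2-fold, all higher in NKT, where 3.12% of all genes passed. Of the latency and activation genes 2 were higher and 1 lower, of the targets 1 higher and 2 lower, and of the activin and BMP branch 1 higher and 1 lower.

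For each member the 3 genes with the most similar levels were found by Pearson r on log2(CPM + 1) over the 38 label and library combinations, among 12871 genes. For Tgfb1 they were Gem (r 0.95), Cmtm7 (0.94) and Tram1 (0.93), and for Tgfbr2 Dusp2 (0.95), Nfatc1 (0.94) and Lax1 (0.94). For Tgfbi they were Cxcl16 (0.96), Tbxas1 (0.92) and Il1b (0.91), for Tgfbr3 Cpe (0.94), Wwtr1 (0.93) and Maged1 (0.93), and for Tgfbr1 they included Mknk1 (0.87) and Acox3 (0.87). The rare ligands gave Camk2a (0.93), Fam46b (0.84) and Gm39473 (0.82) for Tgfb2 and Brdt (0.86), Zfp768 (0.83) and Kctd11 (0.82) for Tgfb3. These names depended on the measure: of the 21 genes 8 were found again with ranks in place of log levels and 2 when combinations needed at least 100 cells.

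The 4 labels with few cells are given for completeness. In 124 B cells Tgfb1 was 355 CPM (interval 301 to 415), Tgfbr1 31.6 CPM and Tgfbr2 124 CPM, and in 203 cells labelled T cells Tgfb1 was 172 CPM and Tgfbr2 65.8 CPM. In 55 T cell Naive cells Tgfb1 was 106 CPM (67.0 to 159) and Tgfbr2 124 CPM (81.7 to 180), and in 37 Stem cells Tgfb1 was 72.3 CPM and Tgfbr2 16.2 CPM.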

How the data were processed

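Cells of CT26 tumors were profiled with 10x Genomics 3′ v3 chemistry. The deposited values are raw UMI counts per gene and cell; the authors made them with Cell Ranger 3.0.2 (per the submitters' processing notes) on GRCm38, kept cells above 500 UMIs and named each cell by its best correlation with ImmGen profiles. The sources used here state no doublet or free-RNA correction. The 4 libraries could not be matched to the 6 samples, so no treatment test was run.

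Counts were summed per label and library and scaled to CPM (pandas 2.3.3, numpy 2.4.6 and scipy 1.17.1, under Python 3.11.15). Log2 ratios used a pseudocount of 1 CPM. Genes with at least 100 UMIs were compared, and a difference over 2-fold in the same direction in every library was counted, a description and not a test. For shares, cells were thinned to 2000 UMIs without replacement and shallower cells left out. Where no UMI was seen, the limit given is that of 3 counts. UMIs are counted once per molecule, and intervals cover counting error only. Doublet scores came from scrublet (scanpy 1.11.5, expected rate 0.06), run on each library; the 606 cells above 0.25 stayed in, and were left out in an alternative. Similar genes were the 3 of highest Pearson r for each member. Thinning and the 2-fold rule were tested on simulated data. The members, gene lists and splits were chosen with earlier results of these data known. Some single-gene values are not reported here. Figures were drawn with matplotlib 3.10.9.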

Additional observations from a re-analysis of the deposited data

Results flagged for a closer look

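In 5 of 56 combinations of gene and label 1 library lay far from the other 3. The rule flags about 1 in 20 by chance for continuous values, a rate that does not hold for sparse counts. Tgfbi in Stroma was 5.81 CPM in M5 (528 UMIs) and 3.22 to 3.50 CPM in the others. Tgfb2 in T cell EFF was 1.02 CPM in M6 (12 UMIs, 9 of them in 1 cell) and 0.092 to 0.170 CPM in the others. The other 3 rest on 3 UMIs or fewer, with every other library at 0, which the rule flags whatever the count. Tgfb2 in DC was 0.511 CPM in M6 (1 UMI), Tgfb2 in T cell MEM 0.231 CPM in M5 (1 UMI) and Tgfb3 in NKT 1.94 CPM in M6 (3 UMIs).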

How the results depend on the processing

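No paired analysis was possible because the libraries could not be matched to the numbered samples. Without mitochondrial and ribosomal protein UMIs the level in the label reported as highest was 635 CPM for Tgfb1, 1.29 for Tgfb2, 8.51 for Tgfb3, 37.6 for Tgfbr1, 216 for Tgfbr2, 66.0 for Tgfbr3 and 429 for Tgfbi. Averaged over cells it was 571 CPM for Tgfb1, 1.41 for Tgfb2, 7.67 for Tgfb3, 37.9 for Tgfbr1 and 60.1 for Tgfbr3, and the Tgfbi calls of NK cells against T cell EFF and of ILC against NK cells went to 0. Without doublet-scored cells Tgfb1 was 484, Tgfbr2 165 and Tgfbi 372 CPM; without cells over 10% mitochondrial UMIs Tgfbr2 was 154 CPM (share 24.5%) and Tgfbi 354 CPM (38.7%). Without cells of 10 or more mast cell UMIs, an alternative chosen after seeing the data, Tgfbr1 was 28.0 and Tgfbi 360 CPM in Myeloid.

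Shares moved with depth by construction. At 1000 UMIs, 4000 UMIs and without thinning they were 38.904%, 79.6% and 85.4% for Tgfb1 in NK cells, 0.134%, 0.404% and 2.69% for Tgfb2 and 0.778%, 2.97% and 20.2% for Tgfb3 in Stroma, 3.58%, 11.9% and 28.4% for Tgfbr1 in Myeloid, 14.6%, 46.1% and 57.1% for Tgfbr2 in NK cells, 5.76%, 19.7% and 72.9% for Tgfbr3 in Stroma, and 22.5%, 52.4% and 59.7% for Tgfbi in Myeloid. Both receptors together gave 0.318%, 3.02% and 7.75% in NK cells and 0.187%, 2.88% and 17.9% in Myeloid. The products of the single shares were 0.288%, 2.96% and 6.76% in NK cells and 0.221%, 2.78% and 11.9% in Myeloid.

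Split at 100 CPM of Col3a1, the Stroma log2 ratios were 0.071 for Tgfb1, 1.15 for Tgfb2, 0.63 for Tgfbr1, 1.24 for Tgfbr2, 1.18 for Tgfbr3 and 0.054 for Tgfbi; at 3000 CPM Tgfbr2 was 4.43, and averaged over cells Tgfbr1 was 0.88. In the C1q split, averaging over cells gave -0.55 for Tgfb1 and -0.48 for Tgfbr1. Leaving out each library in turn, levels spanned 450 to 481 CPM for Tgfb1, 0.838 to 1.04 for Tgfb2, 5.85 to 6.43 for Tgfb3, 151 to 164 for Tgfbr2, 44.9 to 49.5 for Tgfbr3 and 330 to 353 for Tgfbi. The Stroma ratio of Tgfbi spanned 1.41 to 2.66. The Tgfbr3 share spanned 10.3% to 11.2%, and the members called in NKT against T cell EFF 0 to 1. No result changed sign where it was called.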
